A study of Mus musculus with 6 samples.

Results

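The Rag GTPases, the folliculin complex, the MiT/TFE transcription factors and the lysosomal calcium channel mucolipin 1 were followed as 1 group of genes across all 6 arrays of a study of Src kinase. Its members were listed by symbol: Rraga, Rragb, Rragc, Rragd, Flcn, Fnip1, Mitf, Tfe3, Tfeb and Mcoln1. The list was chosen by the signals of Rragd, which had been seen to be higher at 12 h than at 0 h, so every 12 h value below is a description without a test. Of the 10 genes, 9 had a probe set annotated to that symbol alone, out of 18193 such genes on the array, and together they had 18 of the 45037 probe sets that are not controls. Rragb was not analysed here.

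RNA came from SYF cells, a fibroblast line from mouse embryos without Src, Yes and Fyn, the Src family kinases of such cells. Stable transfection had given the cells an inactive form of Src: R388A/Y527F or D386N/Y527F. Both forms carry Y527F, which removes the inhibitory tyrosine in the tail of Src. In the chemical rescue approach, imidazole restores activity to the R388A kinase, and D386N serves as the form that it does not rescue. Each line was starved of serum overnight and taken at 0 h without imidazole, or after 1 h or 12 h in 5 mM imidazole, with 1 Affymetrix mouse 430 2.0 array per group. No array of untreated cells at 1 h or 12 h was among the 6, so imidazole and time in culture cannot be told apart. Each mutation was present in 1 transfected line, so the mutation and the history of that line cannot be told apart, and the labels do not say whether a line is a clone or a pool.

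Cells sense amino acids at the lysosome through the Rag GTPases, in which RagA or RagB pairs with RagC or RagD and brings the growth kinase complex mTORC1 to the lysosomal surface. Folliculin, bound to FNIP1 or FNIP2, makes RagC and RagD hydrolyse GTP, and in that state mTORC1 can phosphorylate TFEB, TFE3 and MITF and keep them in the cytoplasm. When this hold is released, the factors enter the nucleus and bind CACGTG letters in promoters of lysosomal and autophagy genes. Mucolipin 1 releases lysosomal calcium, which activates calcineurin, a phosphatase that acts on TFEB. RRAGD, FLCN and MCOLN1 are themselves known targets of these factors.

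The arrays were summarised in GCOS signal, a linear brightness per probe set, and in a second deposited summary whose method is not given in the sources used here. The deposited GCOS signals were scaled to the same trimmed mean on each array. The 40th percentile of all signals, 20.4 in GCOS and 11.34 in the second summary, served as a floor, and between 26044 and 27400 probe sets per array exceeded it in GCOS. All 9 of 9 fibroblast markers lay above the floor on all 6 arrays, with a summed GCOS signal of 30060.3 to 35615.6. The melanocyte markers Mlana and Tyrp1, the endothelial marker Pecam1 and the osteoclast marker Acp5 stayed below it on all 6. Other markers of these lists did not: Tyr and Pmel of the 5 melanocyte markers, Kdr of 3 endothelial, Krt8 and Krt18 of 4 epithelial, and Cd68 and Csf1r of 4 haematopoietic and macrophage markers lay above it on all 6 arrays. The summed GCOS signal was 98.1 to 143.9 for the melanocyte list, 64.8 to 102.8 for the endothelial, 104.6 to 231.0 for the epithelial and 157.5 to 182.3 for the macrophage list, at most 87.6 for the osteoclast list, and their part in the results was not tested. Members were fitted where a probe set exceeded the floor on at least 2 arrays, which 15 of the 18 did in each summary, and 12 exceeded it on all 6 arrays in GCOS. Signals of different probe sets are not compared with each other, since each binds its RNA with its own efficiency.

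The promoters of all 5 genes whose signal was higher at 12 h in both lines are printed, to set Rragd and Flcn, which held none of the letters searched, beside the 3 that held them. RefSeq windows run from 250 bases before to 50 bases after the transcript start on GRCm38.p6, on the plus strand except for Flcn, which lies on the minus strand. They are chr4:32982748-32983047 for Rragd, chr4:123917183-123917482 for Rragc, chr11:59809990-59810289 for Flcn, chr11:54437929-54438228 for Fnip1 and chr8:3500269-3500568 for Mcoln1. Capitals mark CACGTG and, where a T precedes or an A follows it, TCACGTG on either strand.
Rragd: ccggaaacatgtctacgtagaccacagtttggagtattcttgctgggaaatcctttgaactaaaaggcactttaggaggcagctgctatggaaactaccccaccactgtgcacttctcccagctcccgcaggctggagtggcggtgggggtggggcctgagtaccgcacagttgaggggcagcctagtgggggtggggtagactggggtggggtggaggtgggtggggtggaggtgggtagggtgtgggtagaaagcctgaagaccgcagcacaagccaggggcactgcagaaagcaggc
Rragc: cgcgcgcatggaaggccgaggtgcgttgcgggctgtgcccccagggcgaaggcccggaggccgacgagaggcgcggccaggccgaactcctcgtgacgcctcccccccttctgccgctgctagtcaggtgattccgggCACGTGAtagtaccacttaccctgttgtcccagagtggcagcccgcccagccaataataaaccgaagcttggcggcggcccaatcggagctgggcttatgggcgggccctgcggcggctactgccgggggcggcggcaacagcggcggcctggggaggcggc
Flcn: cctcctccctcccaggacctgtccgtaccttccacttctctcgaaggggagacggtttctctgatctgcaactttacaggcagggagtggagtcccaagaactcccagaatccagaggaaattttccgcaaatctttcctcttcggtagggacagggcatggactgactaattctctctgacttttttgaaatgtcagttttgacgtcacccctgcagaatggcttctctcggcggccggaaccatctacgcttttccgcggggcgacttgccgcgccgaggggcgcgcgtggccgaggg
Fnip1: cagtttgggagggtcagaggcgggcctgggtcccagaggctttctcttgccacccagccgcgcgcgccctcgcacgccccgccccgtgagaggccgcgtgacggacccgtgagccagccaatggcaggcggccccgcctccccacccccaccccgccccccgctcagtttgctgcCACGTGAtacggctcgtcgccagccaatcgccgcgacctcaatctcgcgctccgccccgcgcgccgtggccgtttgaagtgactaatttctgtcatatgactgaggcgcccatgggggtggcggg
Mcoln1: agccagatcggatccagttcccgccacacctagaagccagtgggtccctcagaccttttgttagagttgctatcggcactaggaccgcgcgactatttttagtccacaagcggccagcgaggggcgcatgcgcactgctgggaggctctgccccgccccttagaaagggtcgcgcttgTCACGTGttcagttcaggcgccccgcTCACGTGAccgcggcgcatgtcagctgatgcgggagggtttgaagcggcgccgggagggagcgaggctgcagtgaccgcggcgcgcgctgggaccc
Promoter letters were searched on both strands for CACGTG, for TCACGTG, which contains it, and for TCATGTG. All 10 members had a window, 15 in all, and CACGTG occurred in 4 members: Rragb, Rragc, Fnip1 and Mcoln1. Counted from the start as 0, its first base lay at -112 in Rragc, at -75 in Fnip1, at -71 and -45 in Mcoln1, and at -127, -36 and -3 in Rragb. The same 4 members held TCACGTG, and 0 of 10 held TCATGTG. Over 27025 genes, 8.09% had CACGTG in a window of this length, 4.29% had TCACGTG and 4.31% had TCATGTG. A match describes letters only, and a window without one says nothing of sites elsewhere.

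Among the Rag GTPases, Rragd had the largest change from 0 h to 12 h of all fitted member probe sets in both lines and both summaries. Rragd (chr4:32982998-33022180) encodes RagD, a partner of RagA or RagB. By probe set 1434909_at, its GCOS signal in the R388A/Y527F line was 27.7 at 0 h, 29.1 at 1 h and 55.5 at 12 h. In the D386N/Y527F line it was 16.2, 24.0 and 72.6. Both 12 h arrays thus lay above the 4 earlier ones, and the D386N 0 h array lay below the floor. The 12 h signal was 2.00-fold the 0 h signal in R388A and at least 3.56-fold in D386N, and 2.02-fold and 4.68-fold in the second summary. The R388A minus D386N difference of the 12 h log2 changes was -1.21 in the second summary and, in GCOS, at most -0.83, a bound set by the floor under the D386N 0 h signal. The R388A value was under 2-fold against the 1 h array, with a floor at the 60th percentile or with a pseudocount of 16.

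The other probe sets of Rragd carried little signal. Probe set 1440555_at read 4.4 to 24.0 in GCOS, and 1431164_at read 1.1 to 19.8, below the floor on all 6 arrays. Probe set 1440555_at stayed below the floor on all 6 arrays in the second summary, whereas 1431164_at lay just above it on all 6, at 12.9 to 14.7. In that summary its 12 h log2 changes were 0.04 in R388A and -0.02 in D386N, so the higher 12 h signal of Rragd rests on 1434909_at alone.

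**Figure D1:**
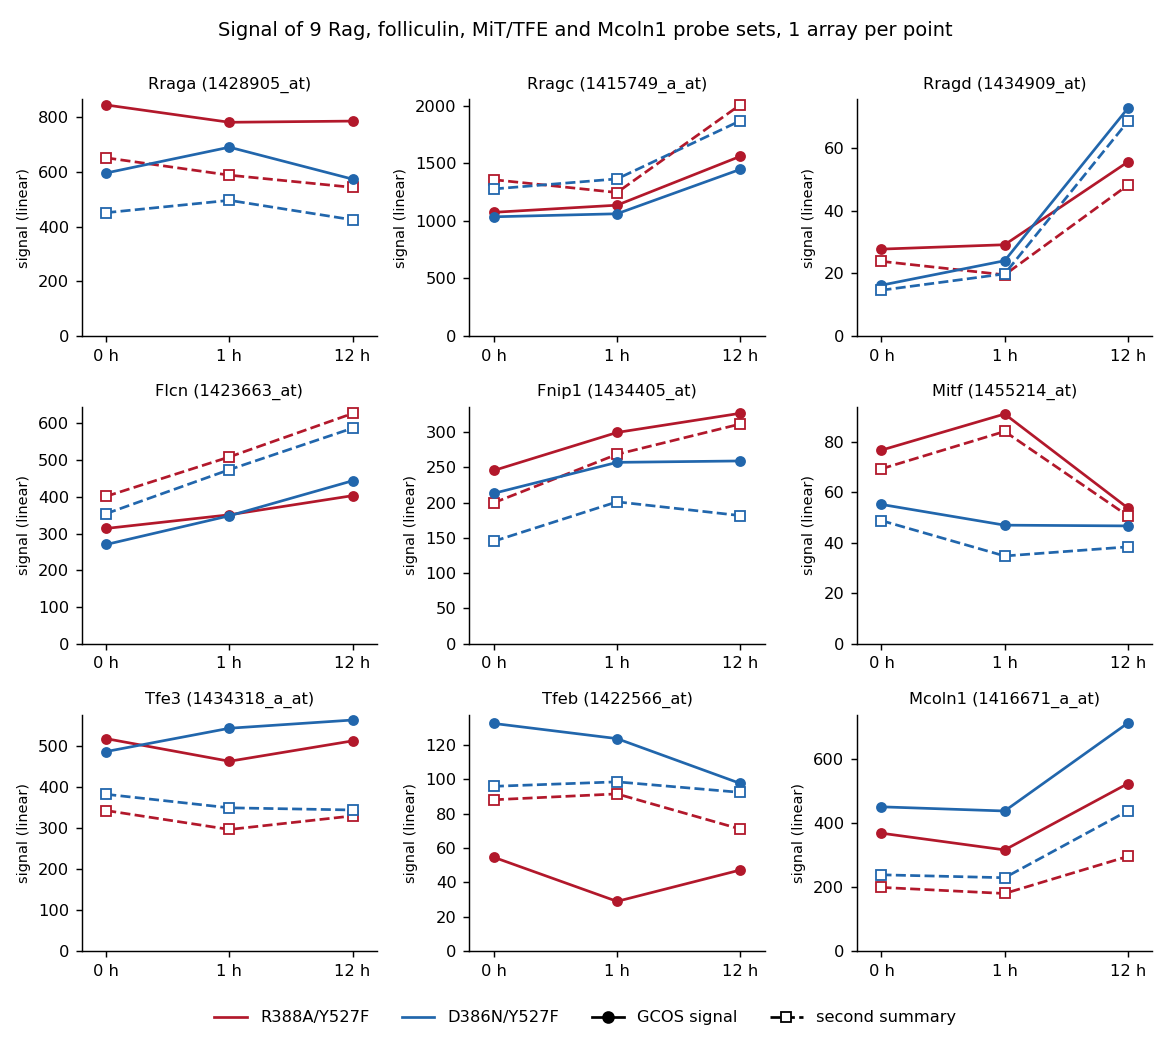
Signal (linear axis) of each member, by the 1 probe set chosen per gene, at 0, 1 and 12 h on the horizontal axis. Each point is 1 array, and lines join the arrays of the R388A/Y527F or the D386N/Y527F cells. Solid lines show GCOS, and dashed lines with open squares show the second summary. In GCOS, Rragd ran from 27.7 to 55.5 in R388A and from 16.2 to 72.6 in D386N, while Rraga was higher in R388A at all 3 times.

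Rragc and Rraga, the other Rag GTPases measured, differed in pattern. Rragc encodes RagC, the closest relative of RagD. Its signal was 1073.4, 1135.3 and 1559.2 at 0, 1 and 12 h in R388A, and 1034.5, 1060.8 and 1446.2 in D386N. The 12 h arrays were the brightest of each line, by 0.54 and 0.48 on the log2 scale, and by 0.57 and 0.55 in the second summary. Rraga encodes RagA, which binds the mTORC1 subunit Raptor. It read 844.9, 781.6 and 786.0 in R388A and 596.2, 690.5 and 573.7 in D386N. Every R388A array lay above every D386N array, and the 12 h changes were -0.10 and -0.06.

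Across the folliculin complex, both well-measured Flcn probe sets were higher at 12 h than at 0 h in both lines. Folliculin (Flcn, chr11:59791408-59810039) is the subunit that acts on RagC and RagD. By probe set 1423663_at the signal was 313.9, 351.1 and 403.2 in R388A at 0, 1 and 12 h, and 270.2, 348.4 and 443.8 in D386N. By 1438167_x_at it was 268.2, 374.3 and 462.7 in R388A, and 348.0, 377.4 and 458.9 in D386N. Signal was thus in the same order, lowest at 0 h and highest at 12 h, in both lines and by both probe sets. The 12 h log2 changes were 0.36 and 0.72 by the first probe set and 0.79 and 0.40 by the second. In GCOS the order of the lines thus depended on the probe set. In the second summary they were 0.64 and 0.73 by the first and 0.62 and 0.68 by the second, larger in D386N by both. Probe set 1456744_x_at stayed below the floor on all 6 arrays in both summaries.

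Fnip1, the folliculin partner that also binds the energy sensor AMPK, was also higher at 12 h in both lines by both probe sets aligned to the strand of the gene. Probe set 1434405_at read 245.7, 299.6 and 326.8 in R388A and 213.3, 257.2 and 259.2 in D386N. Probe set 1449668_s_at read 315.0, 345.6 and 403.1 in R388A and 257.0, 314.0 and 337.5 in D386N. In both, each R388A array was brighter than the D386N array of the same time. The 12 h log2 changes were 0.41 and 0.28 by the first and 0.36 and 0.39 by the second. Probe set 1419924_at, aligned in the deposited annotation to the strand opposite the other Fnip1 probe sets, read 74.5 to 95.7 over the 6 arrays, with 12 h changes of 0.36 and 0.26.

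The transcription factors themselves were not higher at 12 h in the way of Rragd, Rragc or Flcn. Tfe3, a broadly expressed factor of the family, read 518.5, 463.4 and 513.1 in R388A and 487.1, 543.9 and 563.9 in D386N. Its 12 h changes were -0.02 and 0.21, and -0.06 and -0.15 in the second summary, so the direction in D386N turned with the summary. Tfeb, the factor best known for lysosome biogenesis, read 54.6, 29.0 and 47.2 in R388A and 132.3, 123.5 and 97.5 in D386N. All 3 R388A arrays lay below all 3 D386N arrays. In the second summary the same probe set read 88.0, 91.4 and 71.0 against 95.8, 98.4 and 92.3, still without overlap but far closer. The 12 h changes of Tfeb were -0.21 and -0.44 in GCOS.

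Mitf, the family member that directs pigment cell and osteoclast development, gave a dim signal. Probe set 1455214_at read 76.6, 90.9 and 53.7 in R388A and 55.1, 46.9 and 46.6 in D386N. R388A was brighter at each time, and the 12 h changes were -0.51 and -0.24. In D386N the 1 h and 12 h signals were nearly alike, and in the second summary the 1 h array, at 34.7, was dimmer there than the 12 h array, at 38.3. The 5 melanocyte markers were dim too: none exceeded 71.9, and Mlana and Tyrp1 stayed below the floor on all 6 arrays. Their summed signal was 115.0, 131.5 and 98.1 in R388A and 143.9, 136.7 and 115.3 in D386N. With so much of it near the floor, nothing is read from its difference between the lines. In bulk RNA, fewer cells of a type and less RNA per cell cannot be told apart. A second Mitf probe set, 1422025_at, read 7.0 to 24.3 and exceeded the floor on 1 array.

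Mcoln1, on the lysosomal membrane, was higher at 12 h in both lines by both of its bright probe sets. By 1416671_a_at the signal was 368.7, 316.5 and 523.5 in R388A and 451.0, 438.0 and 712.4 in D386N. By 1416672_s_at it was 284.1, 271.5 and 418.5 in R388A and 339.8, 347.3 and 555.7 in D386N. The 12 h array was the brightest of each line, and D386N was brighter than R388A at each time. The 12 h log2 changes were 0.51 and 0.66 by the first and 0.56 and 0.71 by the second. The dim probe set 1431305_at read 19.8 to 36.2 and went the other way in GCOS, with -0.52 and -0.54, but had 0.47 and 0.16 in the second summary. All 3 Mcoln1 probe sets were aligned in the deposited annotation to the minus strand, whereas the RefSeq window of the gene lies on the plus strand. The reason for this mismatch was not tested, and it limits every Mcoln1 value given here.

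Of the fitted member probe sets, 1 of 15 was at least 2-fold higher at 12 h in each line, Rragd 1434909_at in both. The same held for 0.875% of all 29728 fitted probe sets in R388A and for 1.81% in D386N, and 0.0976% were at least 2-fold higher in both lines. In the second summary, where large changes were rarer, the shares were 0.0727%, 0.182% and 0.0255%, again with 1 member in each. At 1.5-fold in both lines there was 1 member in GCOS, against 1.01% of all, and in the second summary there were 4, the 2 Flcn probe sets, Rragd and Mcoln1 1416672_s_at, against 0.251%. At 1.5-fold in a single line there were 2 in R388A and 4 in D386N in GCOS, against 4.55% and 8.49%. By any amount, 10 of 15 were higher in both lines, against 25.0% of all, and 4 were lower in both, against 23.9%. The second summary gave 10 and 4 as well, against 25.2% and 31.4%, but not the same probe sets. Among its 10, Mcoln1 1431305_at stood in place of Rragd 1440555_at, and among its 4, Tfe3 stood in place of Mcoln1 1431305_at. In GCOS Rragd 1440555_at had only 0.23 in R388A and 0.01 in D386N, from 0 h signals below the floor. The 10 in each summary include Fnip1 1419924_at, aligned to the opposite strand. The median 12 h log2 change of the 15 was 0.36 in R388A and 0.28 in D386N, beside -0.01 and 0.02 over all. Since the list was chosen with the 12 h contrast in view, nothing is read from these shares.

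**Figure D2:**
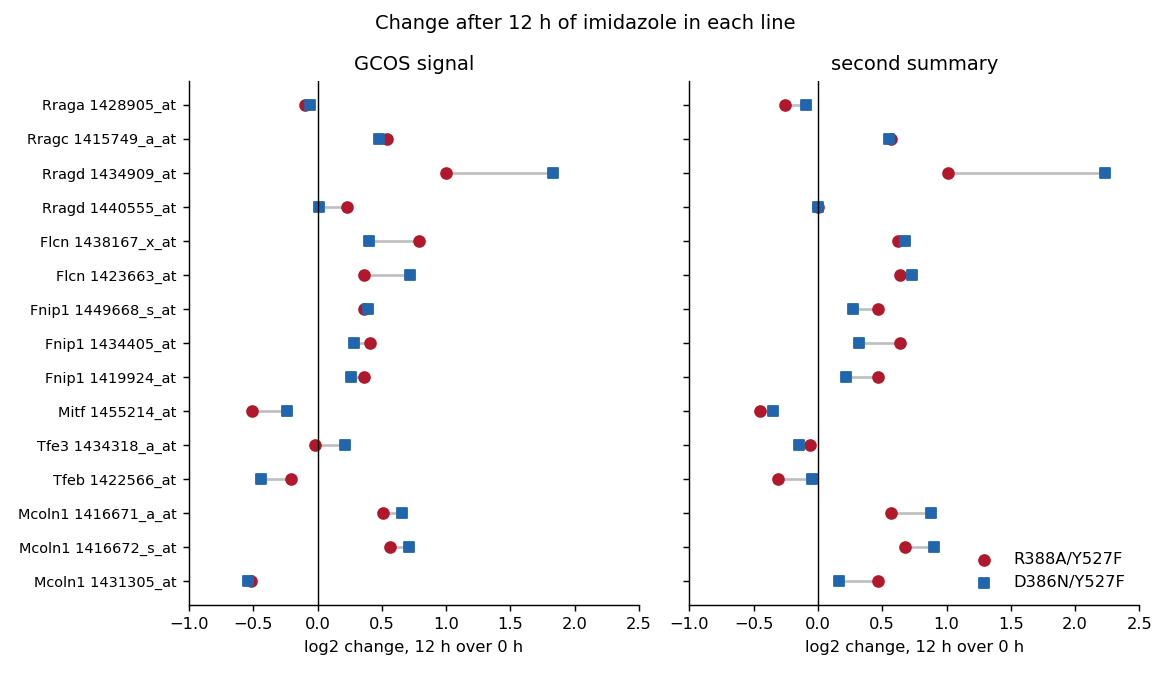
Log2 change from 0 h to 12 h of the fitted member probe sets in R388A/Y527F and D386N/Y527F cells, in the GCOS signal and in the second summary, each value a difference of 2 arrays. Rragd stands farthest to the right in both lines, at 1.00 and 1.83 in GCOS, where the D386N value is a lower bound.

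The 12 h changes of the lines differed by at least 2-fold in GCOS for 0 of 15 member probe sets, against 6.55% of all. For Rragd, with its D386N 0 h array below the floor, the GCOS difference is a bound, so its absence from this count follows from the floor. In the second summary 1 of 15 reached it, Rragd, against 0.469%. With 1 array per group this difference has no replicate check.

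The level of a member in R388A against D386N over the 3 times was not part of the choice of members and was tested with limma, with time as a term and p-values adjusted by Benjamini-Hochberg over all fitted probe sets. The 3 times stand in for replicates, which leaves 2 residual degrees of freedom, and the p-values measure only the spread between these 6 arrays. Rraga was higher in R388A, and Tfeb and both bright Mcoln1 probe sets were lower. That is 1 higher and 3 lower of 15, against 6.82% and 7.25% of all 29728 probe sets, or 14.1% in either direction. In the second summary 3 were higher and 2 lower, against 10.7% and 14.0%, or 24.7% in either direction.

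Rraga was higher in R388A by 0.38 on the log2 scale (SE 0.09, limma adjusted p = 0.023), at 3 of 3 times. In the second summary it was higher by 0.38 as well (adjusted p = 0.0228 with limma). Tfeb had the largest line difference of any member in GCOS, -1.47 (SE 0.25, limma adjusted p = 0.00652), lower in R388A at 3 of 3 times. The Tfeb difference in the second summary was -0.20 (SE 0.10, limma adjusted p = 0.218) and did not pass. Its GCOS signals in R388A, 29.0 to 54.6, were dim and lay under the 60th percentile of all signals, 55.0. Mcoln1 was lower in R388A at 3 of 3 times, by -0.40 (SE 0.08, limma adjusted p = 0.0137) by 1416671_a_at and by -0.34 (SE 0.09, limma adjusted p = 0.0307) by 1416672_s_at. The second summary gave -0.39 and -0.47 for them (limma adjusted p = 0.0306 and 0.0119).

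Mitf and Fnip1 passed in the second summary but not in GCOS. Mitf 1455214_at differed by 0.54 in GCOS (SE 0.24, limma adjusted p = 0.186) and by 0.73 in the second summary (limma adjusted p = 0.047), with R388A brighter at 3 of 3 times in both. Fnip1 1434405_at differed by 0.25 in GCOS (limma adjusted p = 0.122) and by 0.55 in the second summary (limma adjusted p = 0.0161). Rragd 1434909_at, which stood out at 12 h, differed between the lines by only 0.11 (SE 0.24, limma adjusted p = 0.83), and its sign was not stable. Rragc at 0.09, Flcn at -0.13 and 0.03, and Tfe3 at -0.09 also did not pass (limma adjusted p = 0.526, 0.494, 0.888 and 0.572).

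The line calls depended on how the spread was estimated. With no filter on dim probe sets all 4 were lost (limma adjusted p = 0.126 to 0.256), and without the trend of variance on signal Rraga and both Mcoln1 probe sets were lost (limma adjusted p = 0.129 to 0.167), while Tfeb kept its call. Leaving out the 0 h arrays ended the calls of Rraga and Mcoln1 1416672_s_at (limma adjusted p = 0.085 and 0.0553), leaving out the 1 h arrays that of Mcoln1 1416672_s_at (0.053), and leaving out the 12 h arrays those of Rraga and both Mcoln1 probe sets (0.115, 0.0747 and 0.168). Each of these fits left 1 residual degree of freedom. Without the 12 h arrays 2552 of all probe sets were called, against 4182 with all 6 arrays. The differences there were 0.34 for Rraga and -0.38 and -0.31 for the Mcoln1 probe sets. Why the calls were lost was not tested.

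**Figure D3:**
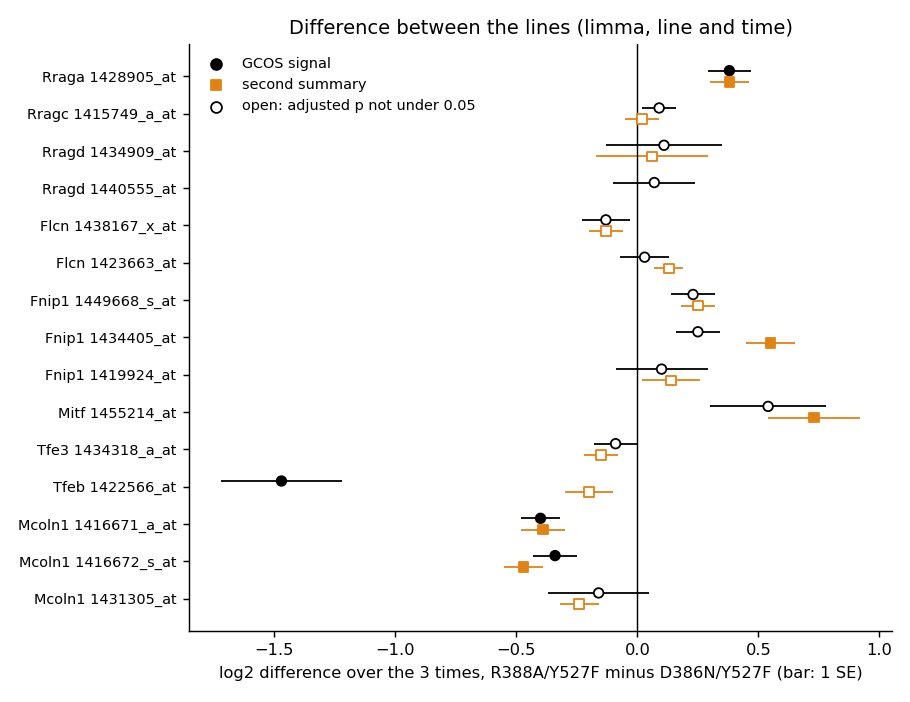
Log2 difference, R388A/Y527F minus D386N/Y527F over the 3 times, of the 15 member probe sets fitted in GCOS, with bars of 1 standard error from limma, in GCOS and, where fitted, in the second summary. Tfeb lies at -1.47 in GCOS and at -0.20 in the second summary, whereas Rraga at 0.38 is alike in both.

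At 1 h no member passed the test. The change common to both lines, tested in the same limma fit, passed for 0 of 15 member probe sets and for 0.0% of all in either summary. At an unadjusted p under 0.05, limma gave 3 of 15 members in GCOS and 3 of 15 in the second summary, against 4.02% and 4.36% of all. Flcn was among them in both: 1438167_x_at was 0.30 higher on the log2 scale at 1 h (SE 0.12, limma adjusted p = 1.0) and 0.37 higher in the second summary (limma adjusted p = 0.927). Flcn 1423663_at gave 0.26 and 0.38. In GCOS the 1 h array was brighter than the 0 h array in each line by both probe sets, which read the same arrays and are not replicates. Fnip1 1434405_at gave 0.28 in GCOS and 0.45 in the second summary (limma adjusted p = 1.0 and 0.927). The other one in GCOS was the dim Mcoln1 probe set 1431305_at, at -0.59 (limma adjusted p = 1.0), but it gave 0.09 in the second summary. In that summary the members under 0.05 were both of these Flcn probe sets and Fnip1 1434405_at. The 1 h contrast shares its 0 h arrays with the 12 h contrast behind the list, so nothing is read from these counts.

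Other genes of the pathway were taken from lists of its complexes, 73 genes of which 69 had a probe set and 66 were fitted, each by 1 probe set in a table of 13746 genes. In the line contrast 3 were higher and 12 lower in R388A, against 9.78% and 11.1% of all genes, and in the second summary 10 were higher and 21 lower, against 15.0% and 20.4%. At 12 h 36 of 66 were higher in both lines and 11 lower in both, against 26.0% and 25.4% of all genes. The lists were chosen with earlier results of these data known, so nothing is read from these counts or those of each list below.

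Of the 5 Ragulator genes, which anchor the Rag GTPases on the lysosome, 2 were lower in R388A and 0 higher. They were Lamtor4 at -0.37 (SE 0.08, limma adjusted p = 0.0144) and Lamtor3 at -0.33 (SE 0.07, limma adjusted p = 0.011). Of the 5, 4 had higher 12 h signals in both lines, with the list's median at 0.27 in each line, and Lamtor1, the lipid-anchored subunit, reached 0.65 in R388A and 0.33 in D386N. Lamtor2, which pairs with Lamtor3, had 0.05 and 0.24.

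The inhibitory arm differed in the line contrast gene by gene. GATOR1 is the complex that makes RagA and RagB hydrolyse GTP, and KICSTOR tethers it to the lysosome. Of 6 fitted genes 2 were higher and 1 lower in R388A. The GATOR1 subunit Nprl3 was higher by 0.63 (SE 0.10, limma adjusted p = 0.00275) and its subunit Nprl2 differed by -0.48 (SE 0.08, limma adjusted p = 0.0032). The KICSTOR gene Itfg2 was higher by 0.51 (SE 0.15, limma adjusted p = 0.0478). At 12 h the GATOR1 subunit Depdc5 had -0.12 in R388A and 0.36 in D386N, and the KICSTOR subunit Kptn 0.02 and -0.19. Itfg2 had -0.03 and 0.61, and Nprl3 0.26 and 0.17. In the second summary Depdc5 had 0.01 and -0.15, Kptn -0.04 and 0.01, Itfg2 0.01 and -0.07, and Nprl3 -0.26 and -0.17. None of these patterns held there.

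GATOR2 opposes GATOR1. With limma 0 of its 5 genes passed in GCOS, and 2 were higher and 1 lower in the second summary. Its 12 h changes were small: Mios had -0.27 in R388A and 0.05 in D386N, Wdr24 -0.07 and 0.14, Wdr59 -0.11 and -0.22, and Sec13 -0.04 and -0.27. In the second summary Mios had -0.25 and -0.31 and Wdr24 -0.06 and -0.21, so the D386N direction of both turned. Wdr59 had 0.1 and -0.15 there, turned in R388A. Among 8 genes of amino acid sensors, 1 was lower, the leucine-binding sestrin gene Sesn1 at -0.54 (limma adjusted p = 0.00799), whose 12 h changes were -0.43 and -0.30. Its relative Sesn3 had -0.29 and -0.38 at 12 h, the leucyl-tRNA synthetase gene Lars -0.09 and -0.39, and Castor2, a relative of the arginine sensor Castor1, -0.11 and 0.31. In the second summary Castor2 had -0.24 in R388A and 0.01 in D386N, and Sesn1 had -0.4 and -0.02.

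In mTORC1 and its Rheb arm 1 of 9 was higher, Rptor, the subunit that binds the Rag GTPases, at 0.34 (limma adjusted p = 0.049), and 1 was lower, the TSC complex subunit Tbc1d7 at -0.40 (limma adjusted p = 0.0266). The list's median 12 h changes were -0.01 and 0.02. Deptor, an inhibitory mTOR partner, was lower at 12 h at -0.36 and -0.44, the TSC complex gene Tsc1 was higher at 0.31 and 0.37, and the mTOR partner Mlst8 had -0.29 in R388A and 0.03 in D386N. In the second summary Mlst8 had 0.05 in R388A and -0.2 in D386N, each of the opposite sign. Of the members' paralogs and partners, 6 of 9 were fitted, and the calcineurin catalytic gene Ppp3cb was lower at -0.40 (limma adjusted p = 0.0074). Fnip2, the other folliculin partner, was 0.35 and 0.68 higher at 12 h, and 0.58 and 0.64 in the second summary. The channel paralog Mcoln3 had -0.76 in R388A and 0.10 in D386N, and Mcoln2 had -0.52 in D386N, a bound since the 12 h array lay below the floor. Both were dim, and neither was fitted in the second summary.

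Among 27 measured lysosomal and autophagy genes known as TFEB targets, 6 were lower in R388A and 0 higher, against 11.1% and 9.78% of all genes. In the second summary 11 were lower and 2 higher, against 20.4% and 15.0%. The sialidase gene Neu1 differed by -0.61 (SE 0.13, limma adjusted p = 0.0118), the saposin precursor Psap by -0.45 (limma adjusted p = 0.00693), the protease gene Ctsb by -0.41 (limma adjusted p = 0.00677) and Ctsa by -0.39 (limma adjusted p = 0.0104). At 12 h 23 of the 27 were higher in both lines, against 26.0% of all genes. Only 1, the autophagy gene Wipi1, was lower in both, against 25.4%. The list was chosen with earlier results of these data known, so nothing is read from these shares. Their median 12 h change was 0.37 in R388A and 0.28 in D386N, where the median over all genes was 0.00 and 0.01. Ctsa, a lysosomal carboxypeptidase that stabilises Neu1, had 0.79 and 0.86, Hexa, a beta-hexosaminidase subunit, 0.58 and 0.82. Ctsf, a cysteine protease, had 0.63 in R388A and at least 1.03 in D386N, where its 0 h signal of 10.5 lay below the floor, and 0.54 and 0.61 in the second summary. Gpnmb, at 1.01 in R388A and -0.97 in D386N, where the 12 h array lay below the floor and the value is a bound, was dim and was not fitted in the second summary.

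**Figure D4:**
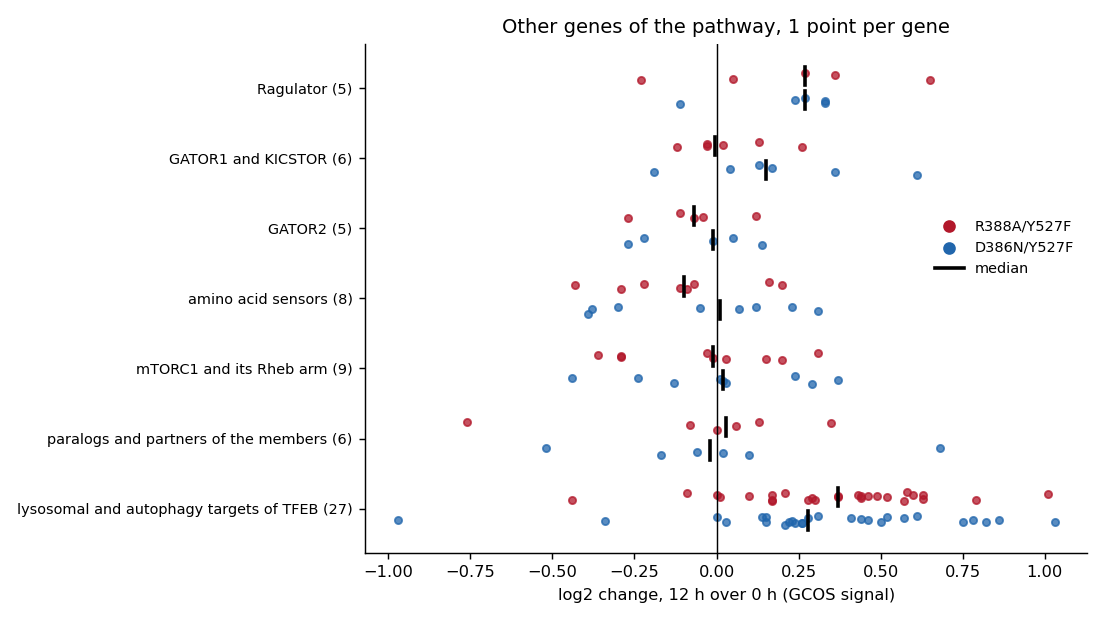
Log2 change from 0 h to 12 h in the GCOS signal for the fitted pathway genes that are not members, 1 row per list (number of genes in brackets) and 1 point per gene and line, with black bars at the medians. Points of the TFEB target list lie mostly to the right of 0, with medians of 0.37 in R388A/Y527F and 0.28 in D386N/Y527F, and those of mTORC1 lie on both sides.

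The pattern most like that of Rragd 1434909_at over the 6 arrays was sought among 10223 genes above the floor on all 6 arrays in both summaries, by the lower of the 2 Pearson correlations of log2 signal. The 5 genes highest in it were Tmem199, Tpp1, Atp6v0b, Fam50a and Cmtm3. Tmem199 had r = 0.988 in GCOS and 0.985 in the second summary, and Tpp1, a lysosomal peptidase gene, had 0.986 and 0.981. Tpp1 read 1290.2, 1358.2 and 1921.6 in R388A and 1257.3, 1273.4 and 2162.8 in D386N, brightest at 12 h in each line and brighter at 12 h in D386N, as Rragd was. Of the members, Rragc ranked 13 of 10223 (r = 0.946 and 0.932), Flcn 120 (0.914 and 0.816) and Mcoln1 212 (0.742 and 0.845). Fnip1 ranked 1482, Tfe3 5386, Rraga 6176, Mitf 6771 and Tfeb 8154. These correlations rest on 6 arrays that share 3 times, and are a description of those arrays.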

How the data were processed

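RNA was measured on 6 single-channel arrays, 1 per line and time. Intensity values were deposited by the authors per array in linear GCOS signal, made with GCOS 1.3 per the submitters' processing notes, and as a second summary of the same arrays whose method is not given in the sources used here. GCOS signal was the main measure. Values were set to the floor where below it and taken to log2. limma 3.58.1 in R 4.3.3 fitted line and time with a variance trend, on 29728 probe sets (27500 in the second summary) above the floor on at least 2 arrays, with Benjamini-Hochberg adjustment and a threshold of 0.05. A 12 h value counted as 2-fold only where the brighter array exceeded the floor. Probe sets were named from the platform annotation, of which 34945 carried 1 symbol, 932 several and 9160 none. A gene's 1 probe set was chosen by suffix specificity and then by mean signal. Tables were handled with pandas 2.3.3 and numpy 2.4.6 in Python 3.11.15, and the fit was tested on simulated data.

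The members and lists were chosen with earlier results of these data known. All members were named. Of other pathway genes, those with the largest line difference among genes called and the largest 12 h change were named, at most 4 of each per list, and for likeness to Rragd the first 5 genes. Each group was 1 array, which limits the precision, and the labels do not say whether arrays came from separate cultures on separate days. Alternatives covered the second summary, quantile normalization, a floor at the 60th percentile, a pseudocount of 16 without a floor, no filter, no variance trend, 1 probe set per gene, the 1.5-fold size, the 1 h array as baseline and leaving out each time.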

Additional observations from a re-analysis of the deposited data

Results flagged for a closer look

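At 1 h, 3 member probe sets had changes of opposite sign in the lines, in both summaries. The share of all probe sets that did so was not counted, so nothing is read from this number. The difference between the lines was not tested, since each group was 1 array. For Rraga 1428905_at the 1 h log2 change in R388A minus that in D386N was -0.32, from -0.11 and 0.21, and the second summary gave -0.15 and 0.14. For Mitf 1455214_at the difference was 0.48, from 0.25 and -0.23, with 0.28 and -0.49 in the second summary. For Fnip1 1419924_at, the probe set on the opposite strand, it was 0.33, from 0.31 and -0.02, with 0.31 and -0.17 in the second summary. The other Fnip1 probe sets were higher at 1 h in both lines in GCOS. They changed by 0.29 in R388A and 0.27 in D386N for 1434405_at, and by 0.13 and 0.29 for 1449668_s_at.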

How the results depend on the processing

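In GCOS limma called 4 member probe sets between the lines. The second summary gave 5 calls, without Tfeb and with Fnip1 1434405_at and Mitf 1455214_at added. There were 3 calls without the 1 h arrays, 2 without the 0 h arrays, and 1 without the 12 h arrays or without the variance trend. Without the filter limma called 0 of 18 members, 7 of them at an unadjusted p under 0.05, and 0 of 45037 probe sets overall. Of the other pathway genes, 15 were called, 31 in the second summary, 4 without the 12 h arrays, 1 without the trend and 0 without the filter, where 21 had an unadjusted p under 0.05 with limma. At 12 h in R388A, 1 member reached 2-fold, 2 reached 1.5-fold, and 0 reached 2-fold with a floor at the 60th percentile, a pseudocount of 16 or the 1 h array as baseline. In D386N 1 reached 2-fold, 4 reached 1.5-fold and 0 did with the higher floor. Differences of the 12 h changes reached 2-fold for 0 members, and for 1 in the second summary, 1 with the 1 h baseline and 1 at 1.5-fold. The line difference of Rragd 1434909_at changed sign to -0.13 with the higher floor and -0.05 without the 0 h arrays, that of Rragd 1440555_at to -0.11 with the pseudocount, and that of Flcn 1423663_at to -0.06 without the 0 h arrays. The cause was not tested for any of these. Among 139 recomputed line differences of single member probe sets, 119 kept direction and side of the threshold, 14 lost the call, 2 gained it and 4 changed sign. No paired analysis was possible because each group has 1 array and so no replicate number to pair on, beyond the pairing by time that the line fit holds. Signal near the floor limits Rragd, Mitf, Tfeb in R388A and the dim probe sets, and 1 array per group limits every 12 h value.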
